A study of Mus musculus with 2 samples.

Results

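Methylation of CpG cytosines was described at the 7 transcription factor genes that direct skeletal muscle differentiation, Myod1, Myf5, Myog, Myf6, Mef2a, Mef2c and Mef2d. Their cytosines were all those outside the recognition sites of both restriction enzymes, covered by at least 5 reads in each library, and lying in the gene, within 1 kb of its 5′ end or in the 25 kb before it. This gave 541 cytosines of 312 CpGs, out of 1850635 cytosines in the whole data set. The data came from reduced representation bisulfite sequencing, in which DNA is cut with MspI and TaqαI, short fragments are treated with bisulfite so that unmethylated cytosine reads as T, and the methylation level of a cytosine is the percentage of its reads that still show C. Mouse C3H myoblasts were differentiated into myotubes, multinucleate muscle cells, and transfected with a short interfering RNA, either a control (siCon) or one that targets H19, a long non-coding RNA (siH19), and DNA was taken 48 h later. The comparison asks where methylation differed after knockdown of H19. Each group was 1 library without replicates, so every test below compares 2 libraries and not 2 conditions, and a difference between cultures cannot be told apart from the knockdown. The myotubes formed in culture from a purchased myoblast line, and the files hold no measurement of H19 or of any other RNA.

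Myod1, Myf5, Myog and Myf6 encode the myogenic regulatory factors, basic helix-loop-helix proteins that pair with E-proteins and bind the E-box in the control regions of muscle genes. Myf5 and Myod1 commit cells to the muscle lineage, Myog drives the fusion and terminal differentiation of myoblasts, and Myf6, also called MRF4, acts in differentiation and in mature fibres. Mef2a, Mef2c and Mef2d encode MADS-box factors that bind an AT-rich motif and act together with the myogenic factors on muscle promoters. In mammals CpG islands at the promoters of broadly used genes are commonly free of methylation, whereas the bodies of such genes are commonly methylated.

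The genes are given by their GRCm38 coordinates. Myod1 lies on chr7:46376474-46379099 on the plus strand, Myf5 on chr10:107482908-107486134 and Myf6 on chr10:107492853-107494737, both on the minus strand, and Myog on chr1:134289989-134292548 on the plus strand. Mef2a lies on chr7:67231163-67372858 on the minus strand, Mef2c on chr13:83504034-83667080 and Mef2d on chr3:88142372-88172086, both on the plus strand.

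Most compared cytosines near the starts of Myod1, Myf5 and Myog lay in the first coding exon. In these 3 genes and in Myf6 a homologous stretch of 136 bases, in the part that encodes the conserved basic helix-loop-helix domain, aligned without gaps. It is shown for the 3 genes with compared cytosines because the same CpGs can be followed from gene to gene. The sequences run 5′ to 3′ on the coding strand of GRCm38, with each CpG in capitals.
Myod1 (chr7:46377010-46377145, plus strand): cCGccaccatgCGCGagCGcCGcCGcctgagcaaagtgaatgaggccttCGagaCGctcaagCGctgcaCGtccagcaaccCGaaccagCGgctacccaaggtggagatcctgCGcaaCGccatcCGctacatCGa
Myf5 (chr10:107485537-107485672, minus strand): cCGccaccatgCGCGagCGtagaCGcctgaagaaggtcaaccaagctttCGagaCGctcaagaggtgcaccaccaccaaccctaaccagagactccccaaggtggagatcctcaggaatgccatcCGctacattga
Myog (chr1:134290309-134290444, plus strand): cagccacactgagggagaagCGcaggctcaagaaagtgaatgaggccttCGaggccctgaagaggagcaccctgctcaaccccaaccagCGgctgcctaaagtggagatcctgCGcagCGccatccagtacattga
Of the 136 bases, 111 (81.6%) were identical to Myod1 in Myf5, 103 (75.7%) in Myog and 96 (70.6%) in Myf6. The number of CpGs in the stretch was 16 in Myod1, 8 in Myf5, 5 in Myog and 6 in Myf6. Compared were 13 of them in Myod1, 5 in Myf5, 2 in Myog and 0 in Myf6.

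The MEF2 genes begin differently. The 250 bases before the RefSeq start of Mef2a (GRCm38, chr7:67372859-67373108, minus strand) are shown because 13 of their 21 CpGs were compared and nearly all reads there were unmethylated. Capitals mark the CpGs.
Mef2a: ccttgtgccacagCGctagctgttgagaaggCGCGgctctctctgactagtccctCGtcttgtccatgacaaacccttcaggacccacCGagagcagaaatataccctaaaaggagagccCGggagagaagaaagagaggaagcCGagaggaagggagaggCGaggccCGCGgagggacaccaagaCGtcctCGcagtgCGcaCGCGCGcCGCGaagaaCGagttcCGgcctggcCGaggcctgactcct
The 26 cytosines compared in this promoter ranged from 0% to 11.1% in siCon and from 0% to 2.86% in siH19. The 5′ end of Mef2c is poor in CpG and was not compared. A CpG island over internal starts of the gene (chr13:83524211-83525014) was not compared either. Shown with CpGs in capitals are 30 bases close to an internal RefSeq start (chr13:83523705-83523734, plus strand, 7 CpGs, all compared). They hold 14 of the 21 cytosines behind a region call described below.
Mef2c: taCGCGtgagtaaCGgaggCGCGCGCGgac
RefSeq promoters, 250 bases before to 50 bases after each start, were matched by symbol for 5 of the 7 genes, all but Myod1 and Myf6. The median number of CpGs over all 32851 promoters was 7. Mef2a had 27 and Mef2d 24, above 84.5% and 80.0% of all promoters, whereas Myog had 9, Myf5 had 3 and the entry at the Mef2c 5′ end had 1. The Mef2c entries at internal starts had 10 and 4. The E-box, CANNTG, whose search is the same on both strands, was found 2 times in the Myog promoter, 2 times in that Mef2c entry and 1 time in another of the gene's 3 entries, and in 72.3% of all promoters. The MEF2 motif, searched on both strands, was found 1 time, in Mef2a, and in 3.19% of all promoters.

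The siCon library held 5453019 cytosines and 104999613 reads summed over cytosines, with a median depth of 12, and the siH19 library 5266846 cytosines and 106372792 reads, with a median depth of 13. At the 541 member cytosines the reads summed to 15449 in siCon and 17774 in siH19, with median depths of 25 and 28. Coverage was uneven among the genes. Outside the enzyme sites, 60.6% of the promoter CpGs of Mef2d were compared, 50.7% of those of Mef2a and 36.6% of those of Myod1, but 13.9% for Myog, 11.6% for Myf5 and 0% for Myf6 and the first start of Mef2c. Myf6 was represented only by 4 cytosines far upstream, which also lie in the upstream window of Myf5. Levels of a region below are means over the same cytosines with the same weights in both libraries, and intervals in brackets are Wilson 95% intervals, which cover counting error only.

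The covered cytosines within 1 kb of the starts spanned nearly the whole range of methylation, and the genes kept their order in both libraries. Within 1 kb of the start, Mef2d was at 0.438% in siCon (0.297 to 0.646) and 0.356% in siH19 (0.240 to 0.527) over 153 cytosines. Mef2a was at 0.851% (0.572 to 1.27) and 0.675% (0.449 to 1.01) over 128 cytosines. Both were unmethylated starts, with 0 methylated reads in both libraries at 109 of the Mef2d and 91 of the Mef2a cytosines. Myod1 was at 35.1% (32.7 to 37.6) and 38.9% (36.4 to 41.5) over 59 cytosines. Myf5 was at 62.8% (54.8 to 70.2) and 53.7% (43.5 to 63.6) over 9 cytosines. Myog was at 74.0% (66.4 to 80.5) and 77.5% (71 to 82.9) over 6 cytosines. In siCon the intervals of neighbouring genes in this order overlapped for Mef2d and Mef2a and for Myf5 and Myog, and in siH19 for Mef2d and Mef2a alone. The median promoter of all 19476 promoters tested was at 3.78% in siCon and 3.90% in siH19. That of the 13554 protein-coding promoters among them was at 2.00% in siCon. In siCon Myod1, Myf5 and Myog stood above 88.4%, 95.1% and 97% of these protein-coding promoters, and Mef2a and Mef2d above 29.8% and 11.7%. The Myf5 cytosines lay 473 to 517 bases after the start and those of Myog 205 to 410 bases after it. Their values and ranks thus describe the first coding exon and not the start itself. In the 250 bases before the Myf5, Myog and Mef2d starts 0 cytosines were compared.

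**Figure D1:**
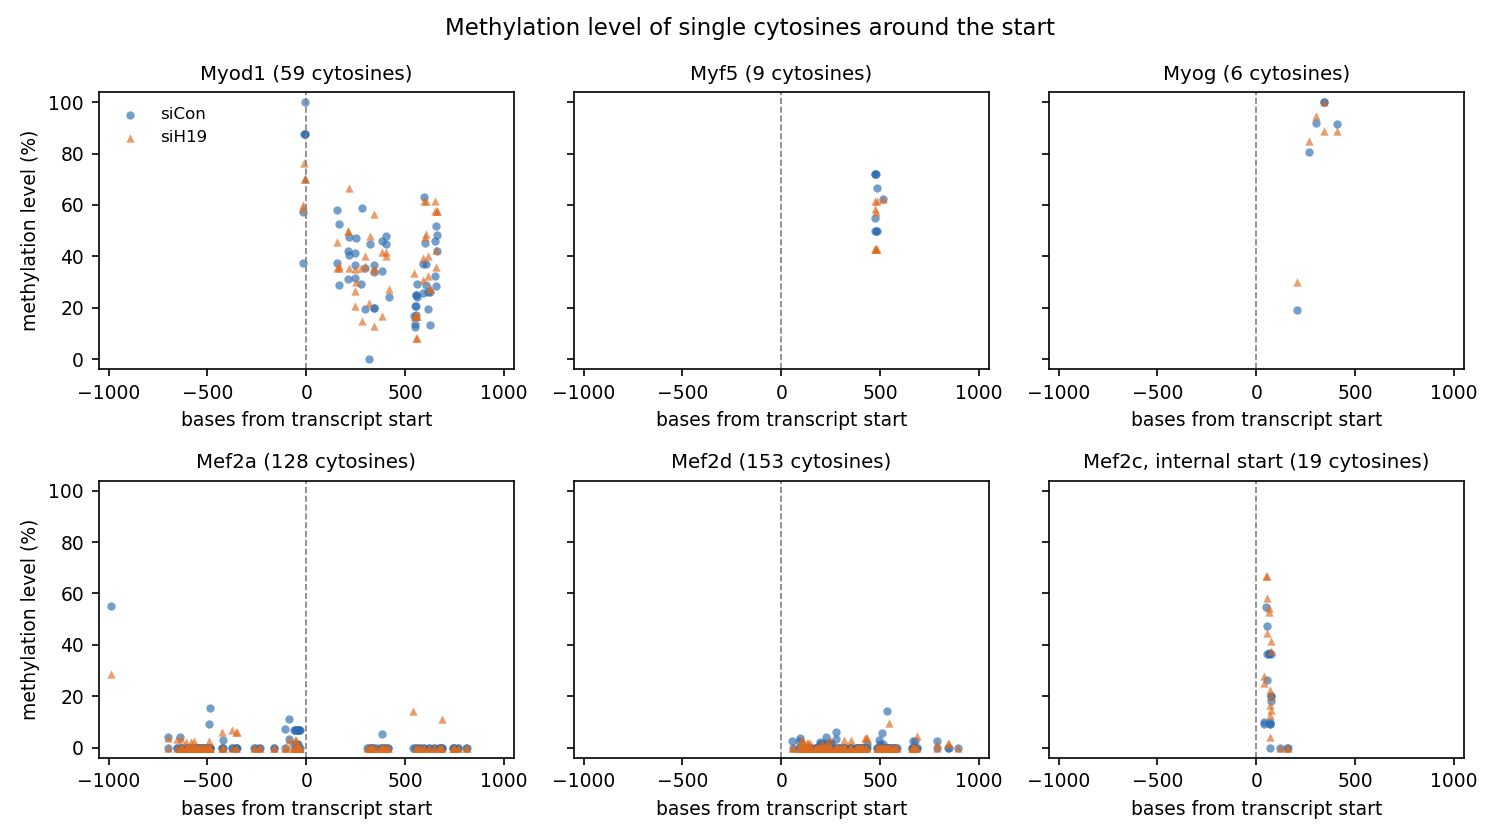
Methylation level in percent of every compared cytosine within 1000 bases of a start, against its distance in bases, for siCon (circles) and siH19 (triangles). Distances are from the 5′ end of the gene, and in the Mef2c panel from an internal RefSeq start. Mef2a and Mef2d lie near 0, with 1 cytosine of Mef2a at 55.0% in siCon at the edge of the window, whereas the covered parts of Myod1, Myf5 and Myog reach 72.2% or more in siCon.

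Myod1, the factor able by itself to turn fibroblasts into muscle cells, was covered in separate blocks before, at the start of and at the end of the gene. In the 6 cytosines 6 to 16 bases before the start, levels ranged from 37.5% to 100% in siCon and from 58.8% to 76.5% in siH19, on 7 to 8 and 10 to 17 reads. In the CpG island of 826 bases that covers the first exon (chr7:46376555-46377380), 53 cytosines gave 33.4% (31.0 to 35.9) in siCon and 37.7% (35.1 to 40.3) in siH19. In a second island around the end of the gene (chr7:46378104-46378533), 22 cytosines gave 25.9% (22.8 to 29.3) and 30.8% (27.1 to 34.8). Intermediate levels thus lay over exons at both ends of this short gene. Farther out, 6 cytosines of a CpG island about 4 kb before the start (chr7:46372325-46372537) gave 77.3% (68.3 to 84.3) and 86.5% (79.4 to 91.5), among them a cytosine with 25 of 25 methylated reads in siCon and 21 of 21 in siH19.

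The levels of all 3 Myod1 regions were higher in the siH19 library, and none was called. A region was called when the p-value of a Cochran-Mantel-Haenszel chi-square test stratified by cytosine, adjusted by Benjamini-Hochberg over all regions of its kind, was under 0.05 and the difference was at least 10 percentage points. The difference was 3.78 ± 1.77 points (counting standard error) in the promoter (adjusted chi-square p = 0.188), 4.91 ± 2.43 in the body (adjusted p = 0.358) and 10.0 ± 4.05 in the upstream window of 10 cytosines, where siCon was at 72.1% and siH19 at 82.2% (adjusted p = 0.188). In the promoter 32 cytosines were higher and 27 lower in siH19, and in a window of 500 bases to either side of the start the difference was 0.330 points. In the body the strands went opposite ways, with -1.01 ± 4.02 points on the plus strand and 7.95 ± 3.04 on the minus strand. With each library's own read weights the Myod1 promoter difference was 5.36 points (adjusted p = 0.0189, Fisher's exact test of the reads added up over cytosines), whereas the unweighted mean over cytosines was 37.7% in siCon and 38.5% in siH19.

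Myf5, which opens the muscle programme in the embryo, showed higher methylation in its first exon than in the covered part farther into the gene. The 9 cytosines in the first coding exon, 473 to 517 bases after the start, ranged from 50% to 72.2% in siCon and from 42.9% to 62.5% in siH19. The level was lower in siH19 at 8 of 9 cytosines and the same at the other. Reads that span several of these close cytosines count at each, so the 9 are not independent. The largest depths were 18 in siCon and 16 in siH19 on the plus strand, and 20 and 7 on the minus strand. On 160 siCon and 96 siH19 reads the promoter difference was -9.11 ± 6.57 points (adjusted chi-square p = 0.442). The 6 cytosines 1879 to 2052 bases after the start, in a coding exon and an intron, gave 9.24% (5.72 to 14.6) in siCon and 16.8% (9.13 to 28.9) in siH19 (difference 7.58 ± 4.81, adjusted chi-square p = 0.512). The strands of this block went opposite ways, from 4.66% to 24.3% on the plus strand and from 16.7% to 4.76% on the minus strand. Myf6, which lies just before Myf5 on the same strand, shares 4 upstream cytosines with it. These cytosines, at distances of -5307 to -4149 bases from the Myf6 start, were at 12.5% to 40.0% in siCon and 16.7% to 40.0% in siH19, with only 5 or 6 reads each in siH19.

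Myog, the factor required for muscle fibres to form, had a steep gradient within its first exon. At 205 bases after the start the level was 18.9% in siCon (7 of 37 reads) and 30.0% in siH19 (12 of 40). At 266 bases it was 80.6% (29 of 36) and 85.0% (34 of 40), and at 302 bases 91.9% (34 of 37) and 94.6% (35 of 37). At 340 bases the plus cytosine was methylated in 22 of 22 reads in siCon and 51 of 51 in siH19. The gradient was thus present in both libraries, and the low first cytosine was separated from the next by its Wilson interval in each (9.48 to 34.2 against 65 to 90.2 in siCon, and 18.1 to 45.4 against 70.9 to 92.9 in siH19). In the last exon, in the 3′ untranslated part, the levels of the 2 cytosines were 0% (0 of 10 reads) and 19.4% (7 of 36) in siCon and 11.1% (1 of 9) and 7.69% (3 of 39) in siH19. A count of 0 of 10 reads allows a level of up to 30%. The single CpG compared in between, in a coding exon 1169 bases after the start, was at 55% (22 of 40 reads) and 76.5% (13 of 17) on the plus strand and at 61.0% (25 of 41) and 50% (9 of 18) on the minus strand, so that its strands differed between the libraries in opposite directions. The promoter difference was 3.46 ± 3.54 points (adjusted chi-square p = 0.620), and with 4 cytosines the body was not tested.

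Within the aligned stretch the 3 genes differed at matching CpGs. Both strands of a CpG were summed here. At base 12 of the stretch Myod1 was at 18.9% in siCon (10 of 53 reads, 10.6 to 31.4) and Myf5 at 60.5% (23 of 38 reads, 44.7 to 74.4). At base 24 they were at 26.4% (16.4 to 39.6) and 57.9% (42.2 to 72.1). At the 4 matching CpGs from base 12 to base 24 the siCon intervals of Myod1 and Myf5 did not overlap, whereas at base 55, with 8 Myf5 reads, they did. In siH19, with 18 Myod1 reads per CpG, the values at base 12 were 22.2% (9.0 to 45.2) and 52.6% (31.7 to 72.7), and the intervals overlapped at 3 of these 4 CpGs, all but base 24 (11.1%, 3.10 to 32.8, against 55%, 34.2 to 74.2). At base 90 Myod1 was at 19.3% in siCon (13.1 to 27.5) and 27.7% in siH19 (20.7 to 35.9), and Myog at 91.7% (64.6 to 98.5) and 88.9% (56.5 to 98.0). At base 21 Myod1 was at 25% and 16.7% and Myog at 100% (28 of 28 reads) and 97.1% (67 of 69). Myog was thus higher than Myod1 at both matching CpGs in both libraries, with intervals that did not overlap. Over all compared cytosines of the stretch, Myod1 was at 30.6% and 38.1%, Myf5 at 62.8% and 53.7% and Myog at 98.3% and 95.7% in siCon and siH19.

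**Figure D2:**
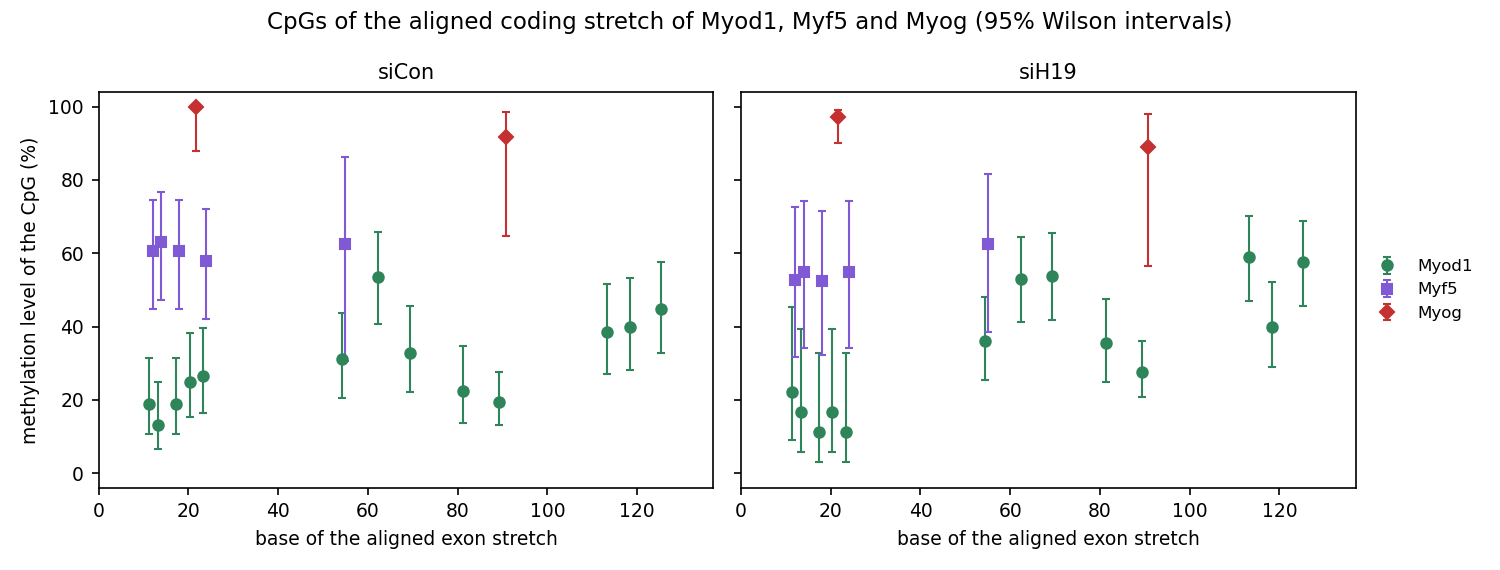
Methylation level in percent of each compared CpG (both strands summed) against its base in the aligned stretch of 136 bases, for siCon (left) and siH19 (right), with Wilson 95% intervals. Points of different genes are shifted sideways by under 1 base, and Myog (diamonds) lies above Myod1 (circles) at both bases they share, as Myf5 (squares) does at the bases it shares with Myod1.

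The MEF2 genes Mef2a and Mef2d showed unmethylated starts and methylated bodies. The Mef2d start lies in a CpG island of 1361 bases (chr3:88141754-88143114), in which 148 cytosines were at 0.433% in siCon and 0.330% in siH19. Low levels extended upstream of Mef2d. The 6 cytosines at -1654 to -1647 bases were at 1.23% in siCon and had 0 methylated of 144 reads in siH19, added up over cytosines. Each minus cytosine had 33 siH19 reads and each plus cytosine 15, so the same reads can be counted at several. The limit of 2.08% takes all counts as independent, and the limits of single cytosines were 9.09% and 20%. The 6 cytosines at -3499 to -3486 bases were at 0.334% in siCon and 0.846% in siH19. From 12 to 25 kb before the start the blocks of cytosines lay between 56.9% and 100% in siCon. The upstream window as a whole was at 47.7% and 48.8% (38 cytosines, difference 1.03 ± 1.07, adjusted chi-square p = 0.711). This difference was 6.52 points with each library's own read weights (adjusted p = 0.0196, Fisher's exact test of the added reads) and -0.167 points in a window of 10 kb. Its outermost blocks lie inside the neighbouring gene Iqgap3. The Mef2d body, 24 cytosines, was at 73.2% (69.5 to 76.6) in siCon and 71.3% (67.8 to 74.6) in siH19 (adjusted chi-square p = 0.652), and 5 cytosines of its last exons were at 95.8% and 94.9%.

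At Mef2a the island over the start (1695 bases, chr7:67371909-67373603) held 127 cytosines at 0.667% in siCon (0.425 to 1.05) and 0.580% in siH19 (0.374 to 0.898). Methylation set in at the edge of the window. The cytosine at -987 bases had 11 of 20 methylated reads in siCon and 2 of 7 in siH19, and that at -1152 bases had 19 of 20 and 6 of 7. The body was at 75.3% (69.0 to 80.7) and 71.1% (65.2 to 76.4) over 16 cytosines. Coding exons lay at 97.6% and 97.1% over 6 cytosines, and the lowest part of the body was an intron block of 3 cytosines 18747 to 18795 bases after the start, at 38.5% and 26.8%. Of the 16 body cytosines, 8 lie in the annotated extent of the overlapping gene Lysmd4. The Mef2a body difference, -4.17 ± 3.09 points (adjusted chi-square p = 0.603), became -12.6 points with each library's own read weights (adjusted p = 0.0113, Fisher's exact test of the added reads), and 0.651 points with enzyme-site cytosines kept.

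**Figure D3:**
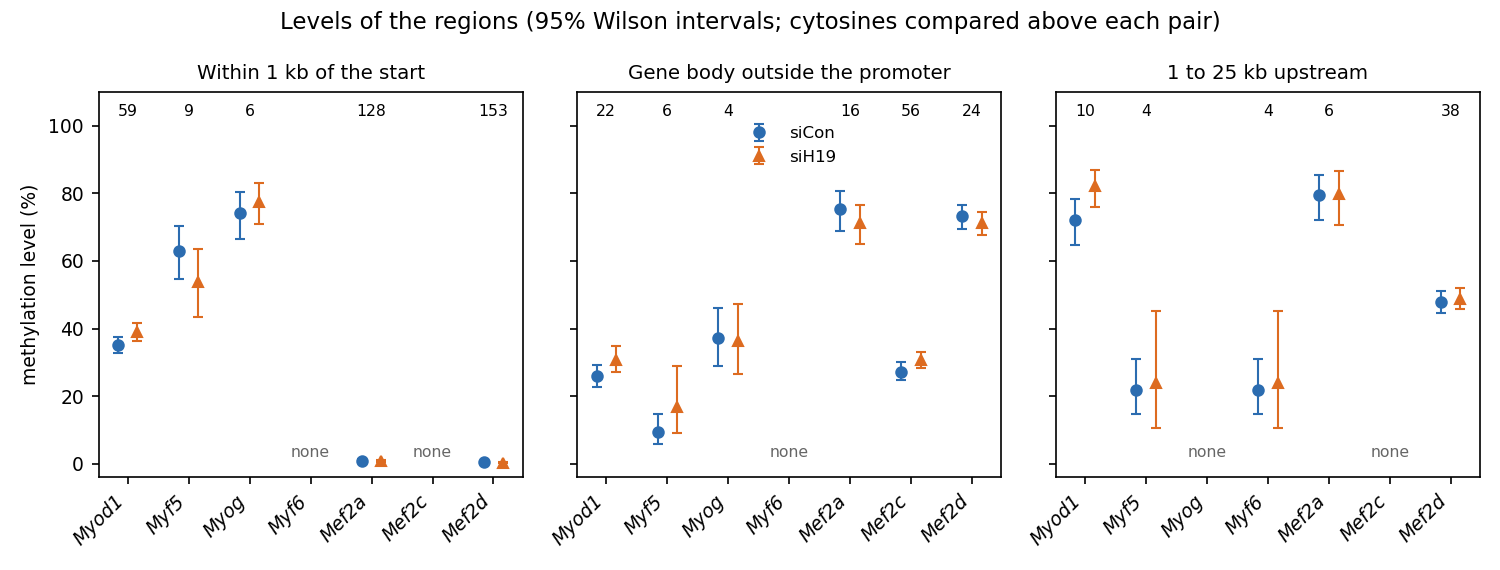
Methylation level in percent of the promoter, body and upstream window of each gene in siCon (circles) and siH19 (triangles), with Wilson 95% intervals and the number of compared cytosines above each pair; "none" marks regions with no compared cytosine. The Mef2a and Mef2d promoters are below 1% while their bodies are above 70%, and Myod1, Myf5 and Mef2c bodies are below 31% in both libraries.

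Mef2c, the MEF2 gene expressed with differentiation in skeletal muscle and heart, had a body level, unlike both, in the lower part of the range, at 27.2% (24.7 to 30.0) in siCon and 30.6% (28.3 to 33.1) in siH19, over 56 cytosines (difference 3.40 ± 1.66, adjusted chi-square p = 0.351). Without the windows at its internal starts the body difference was -1.09 points over 35 cytosines. In siCon this body stood above 20.3% of the 13994 protein-coding bodies tested, against 66.4% for Mef2d and 69.1% for Mef2a. Only 3.27% of the Mef2c body CpGs outside enzyme sites were compared. Of the 56 cytosines, 11, 19 and 8 lay in separate CpG islands. In the Mef2a body 1 of 16 lay in an island, and in the Mef2d body islands held 2 and 2 of 24. Whether this mix of cytosines accounts for the lower Mef2c level was not tested. A CpG island in an intron (chr13:83517972-83518424) was at 18.6% and 23.0% over 11 cytosines. The 8 minus-strand cytosines in a coding exon 158374 to 158482 bases after the start were at 35.8% and 33.3%. Within that exon the first cytosine was at 93.5% (43 of 46 reads) in siCon and 94.1% (32 of 34) in siH19, and the last at 8% (2 of 25) and 0% (0 of 28), which allows up to 10.7%.

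Internal Mef2c starts were called under an alternative choice of windows. When windows were set at every annotated transcript start, 21 cytosines of Mef2c were at 27.0% (22.3 to 32.2) in siCon and 38.8% (35.2 to 42.4) in siH19, a difference of 11.8 ± 2.96 points (chi-square p = 6.75e-05, adjusted p = 0.00349). Of all 20297 genes with such windows, 0.65% were called. Of the 21, 19 lay 40 to 159 bases after a RefSeq start at position 83523656 of chr13, around the short sequence shown above. The annotated starts that set their window lie at 83524535 to 83524866, so these 19 lay before them. The CpG island over those starts (chr13:83524211-83525014) had 0 compared cytosines. The other 2 cytosines lay in a separate window (chr13:83572607-83574622), at 66.6% in siCon on 65 reads and 75.1% in siH19 on 16 reads. The level of the 19 was 24.4% (19.7 to 29.8) in siCon on 278 reads and 36.4% (33 to 40.0) in siH19 on 756 reads. Of the 19 cytosines, 14 were higher and 2 lower in siH19, and the last 3 were at 0% in both libraries on 9 to 10 and 13 reads. The minus strand differed by 14.7 ± 4.11 points (chi-square p = 0.000343) and the plus strand by 9.32 ± 4.49 (p = 0.0378). The first CpG went from 9.09% (2 of 22) to 27.8% (20 of 72) on the plus strand and from 10.0% (2 of 20) to 25% (12 of 48) on the minus strand. The smallest exact p of a single cytosine by Fisher's test was 0.00557.

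This call depended on how the reads were treated. Reads that span neighbouring CpGs are shared between them, and the test counts them at each. At the first 4 CpGs all 16 numbers of methylated and total reads on the plus strand were even, and depths of 22 in siCon and 72 in siH19 there stood against 11 and 34 to 36 at the next 4 CpGs. On the minus strand 10 of 16 numbers were even at the first 4 CpGs and 12 of 16 at the next 4, with depths of 19 to 20 and 48 against 10 and 24. Whether reads were counted more than once at these CpGs was not tested. With the reads of the first 4 CpGs halved on both strands, the difference was 9.71 points (adjusted chi-square p = 0.0505). With each library's own read weights it was 6.98 points over all 21 cytosines (adjusted p = 0.105, Fisher's exact test of the added reads). Over the 19 cytosines alone the read-weighted difference was 14.0 points (23.7% in siCon and 37.7% in siH19), without a test. The other 2, at read-weighted levels of 64.6% and 75%, held 65 of the 343 added reads in siCon but 16 of the 772 in siH19. A further test divides the chi-square by the spread between cytosines and takes p from an F distribution. The spread here was at its lower limit of 1, which left the chi-square unchanged, and the adjusted p of this F test was 0.0571. These alternatives were chosen after seeing the data.

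**Figure D4:**
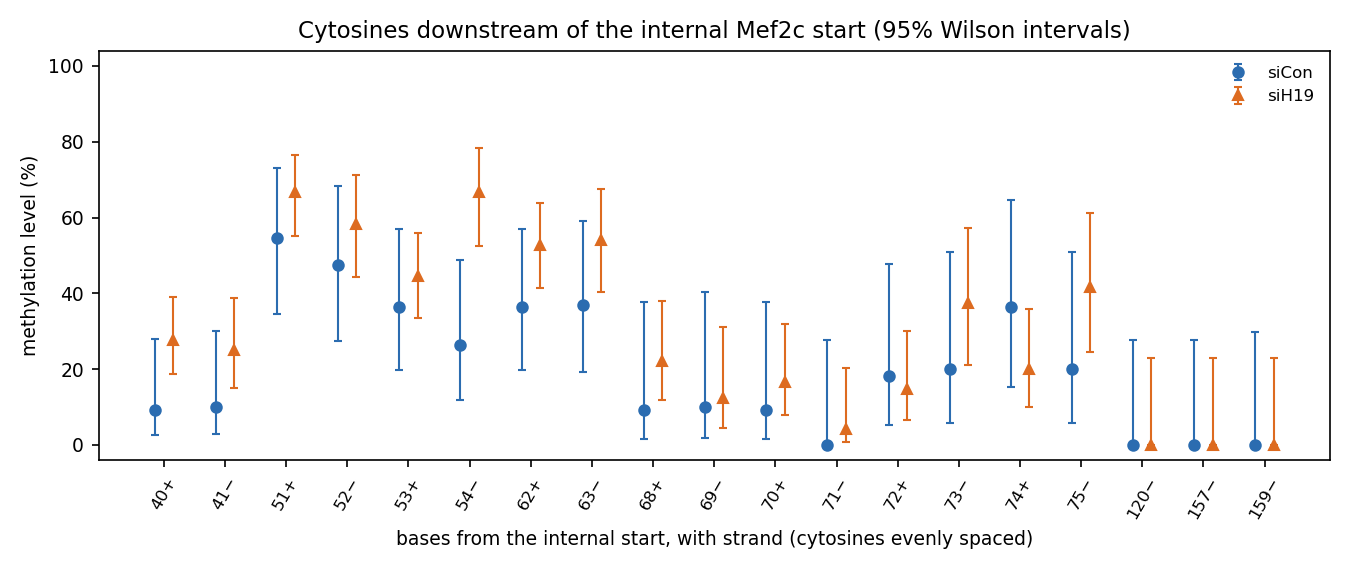
Methylation level in percent, with Wilson 95% intervals, of the 19 cytosines 40 to 159 bases after the internal Mef2c start, evenly spaced in order of position and marked with their strand, for siCon (circles) and siH19 (triangles). The siH19 point is higher at 14 cytosines, lower at 2 and at 0 together with siCon at the last 3.

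With the 5′ end of each gene as the start, 0 of the 5 promoters tested were called, 0 of the 5 bodies and 0 of the 3 upstream windows. Over the genome 0.626% of promoters, 0.316% of bodies and 0.469% of upstream windows were called, so that a count of 0 among so few regions is near the background. At an adjusted p under 0.05 without a minimum difference, the counts for the 7 genes were also 0, against 7.39% of promoters, 1.4% of bodies and 2.11% of upstream windows over all genes. Unadjusted p-values under 0.05 were found for the promoter, body and upstream window of Myod1 and for the body of Mef2c. Over all genes such values were found for 21.3% of promoters, 13.1% of bodies and 14.7% of upstream windows. The difference of the Myf5 promoter was larger in size than that of 97.9% of promoters, that of the Myod1 upstream window larger than that of 97% of upstream windows, and that of the Mef2d promoter larger than that of 9.24%. These ranks do not allow for depth or level. The Myf5 promoter difference had a counting standard error of 6.57 points, on 160 siCon and 96 siH19 reads. The median size of a promoter difference over all genes was 0.677 points.

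**Figure D5:**
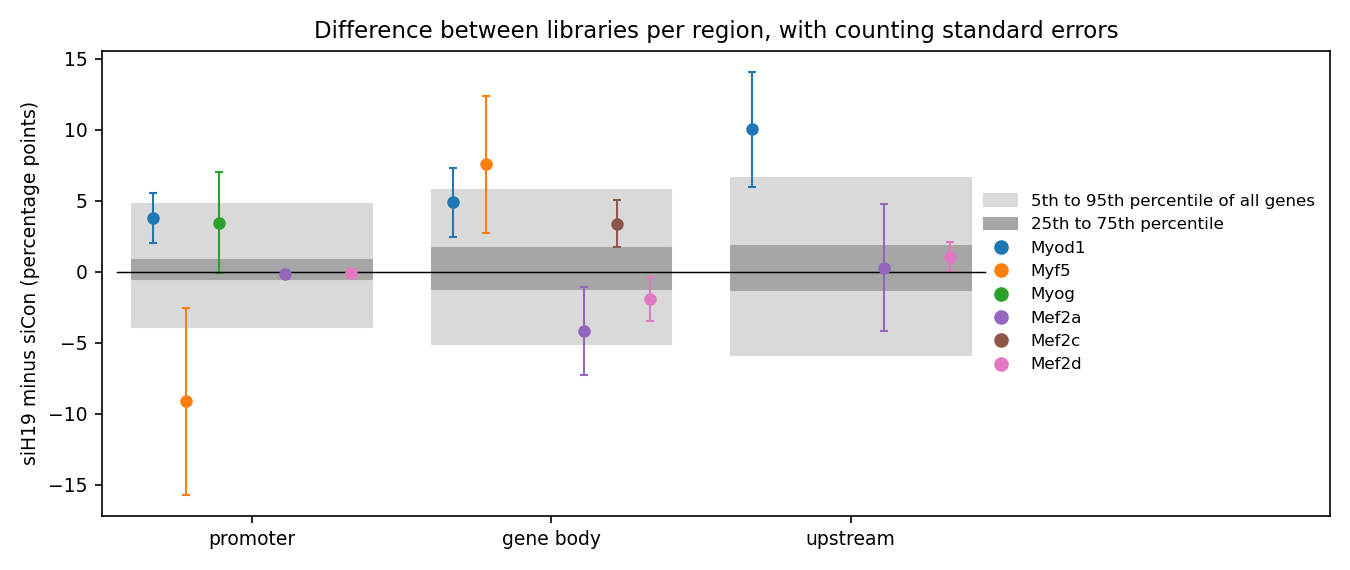
Difference between libraries (siH19 minus siCon, in percentage points) for each tested region of the genes, with counting standard errors, over the spread of all genes (light and dark bands). The Myf5 promoter, the Myf5 body and the Myod1 upstream window lie outside the light band.

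At single cytosines the libraries were close. A cytosine was called strongly changed when its reads gave, by Fisher's exact test (two-sided), an unadjusted p-value under 0.05 and the difference was at least 33 points. This held for 4 of the 541 cytosines (0.739%), 2 higher and 2 lower in siH19, whereas over all cytosines it held for 0.986%, with 0.519% higher and 0.467% lower. Unadjusted p-values under 0.05 were found at 7 member cytosines (1.29%), against 2.53% over the genome. Adjusted over the genome, 0 member cytosines passed 0.05, against 0.00648% of all, and the smallest adjusted p was 1 by Fisher's exact test. Of the 541, 158 were higher, 151 lower and 232 equal, and differences ranged from -61.1 to 40.4 points. At 301 the level was under 10% in both libraries and at 90 over 50% in both.

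The 4 strongly changed cytosines lay in 3 genes. The first was in Mef2c at chr13:83523710, minus strand, inside the short sequence shown above, with 5 of 19 methylated reads in siCon and 32 of 48 in siH19 (26.3% and 66.7%, Fisher's exact p = 0.00557). The second was in an intron of Mef2c at chr13:83636081, plus strand, with 6 of 6 and 14 of 36 (100% and 38.9%, exact p = 0.00739). The third was in Myf5 at chr10:107484089, plus strand, with 1 of 36 and 4 of 11 (2.78% and 36.4%, exact p = 0.00805), whereas the minus cytosine of the same CpG had 1 of 20 and 0 of 7. The fourth was in the first exon of Myod1 at chr7:46376754, minus strand, with 10 of 17 and 3 of 20 (58.8% and 15%, exact p = 0.00754). The CpG of the first differed in the same direction on both strands, its plus cytosine being at 36.4% and 44.4%, and that of the second was compared on 1 strand alone. For the third and the fourth the other strand differed in the opposite direction. The depth behind each was at most 48 reads per library.

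The strands of a CpG within 1 library gave a measure of technical spread. Of the 229 CpGs of these genes with 5 reads or more on both strands in both libraries, the strands differed at a Fisher's exact p under 0.05 at 6 in siCon and 6 in siH19, against 3.51% and 3.28% of all such CpGs. Between the libraries the plus cytosine differed at 3 and the minus cytosine at 3, against 2.55% and 2.52% of all. Counting differences of any size, both strands differed between the libraries in the same direction at 55 CpGs and in opposite directions at 45. Over all such CpGs of the genome these counts were 213251 and 208291.

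Among 35 partners and regulators of the factors, such as the E-proteins Tcf3 and Tcf12, the Id proteins that sequester them, class IIa histone deacetylases that repress MEF2 and the upstream factors Pax3 and Pax7, 0 of 32 promoters, 0 of 30 bodies and 0 of 30 upstream windows tested were called. The median over their promoters was 1.14% in siCon and 0.785% in siH19, against a median difference of 0.0884 points over all promoters and -0.0253 over theirs. An adjusted p under 0.05 with a smaller difference was found for 1 of the 32 promoters and 2 of the 30 bodies, against 7.39% of promoters and 1.4% of bodies over all genes, and these are named here after their values were seen. The promoter was that of Mdfi, which encodes an inhibitor of the myogenic factors, at 25.8% and 35.0% over 48 cytosines (difference 9.20 ± 2.09 points, adjusted chi-square p = 0.000848). The bodies were those of Hdac5, a deacetylase that binds MEF2, at 44.8% and 48.3% (adjusted chi-square p = 0.0356), and of Srf, a MADS-box factor of muscle genes, at 2.37% and 0.552% (adjusted p = 0.000337). Muscle structural genes could be compared at 4 of 8 promoters, with levels from 0.479% to 12.3% in siCon, and genes of other cell types at 3 of 11, from 5.35% to 43.7%. In these lists 0 regions were called. An adjusted p under 0.05 was found for 1 of 5 muscle structural bodies, against 1.4% of bodies over all genes. It was also found for 1 of 8 upstream windows of the other cell types, against 2.11% of upstream windows over all genes. Both are named after their values were seen. The body was that of Acta1, which encodes skeletal muscle actin, at 29.1% and 38.4% (adjusted chi-square p = 1.80e-05). The upstream window was that of Adipoq, which encodes a hormone of fat cells, at 11.8% and 13.9% (adjusted chi-square p = 0.0228). Methylation alone does not give expression, so the identity of the cells was not checked further.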

How the data were processed

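Reduced representation bisulfite sequencing was done on 1 siCon and 1 siH19 library of mouse myotubes, with groups taken from the sample labels. The deposited files give each CpG cytosine, its strand, and in 1 text field the methylated reads, all reads and a rounded percentage. The authors added a score, the methylated fraction scaled and rounded down. Alignment was by Bismark, non-directional, with filled-in nucleotides trimmed, per the methods. Duplicate removal is not given in the sources used here, and without molecular identifiers reads are not independent molecules. The submitters' processing notes name mm10 and bcl2fastq 1.8.4. All 6041258 positions on assembled chromosomes fell on CpGs of GRCm38. Counts were not normalized between libraries.

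Of 3413804 cytosines read 5 times or more in both libraries, 1850635 lay outside MspI and TaqI sites, where end repair can set the state of a cytosine. Annotation was GENCODE vM21 basic (55413 genes). Promoters reached 1 kb to either side of the 5′ end, bodies were the rest of the gene and upstream windows went on to 25 kb, each tested with at least 5 cytosines. Fisher's exact tests (two-sided) compared cytosines, and Cochran-Mantel-Haenszel chi-square tests stratified by cytosine compared regions, with Benjamini-Hochberg adjustment over the genome. CpG islands had at least 200 bases, 50% GC and 0.6 of the expected CpGs. Limits for 0 methylated reads are 3 counts of the total, in which reads shared between cytosines count at each. Python 3.11.15, numpy 2.4.6, pandas 2.3.3, scipy 1.17.1, numba 0.67.0 and matplotlib 3.10.9 were used, tested on simulated data. The members, lists and tests were chosen with earlier results of these data known, as was the rule for naming items: all 7 genes, strongly changed cytosines if 10 or fewer, islands and transcript starts with at least 5 compared cytosines, and genes of the other lists where called. As none was called, 5 of these genes are named only after their values were seen. Alternatives were at least 10 reads, enzyme sites kept, strands summed, deepest cytosines or repeats left out, and other thresholds, windows, weights and region tests.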

Additional observations from a re-analysis of the deposited data

Results flagged for a closer look

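Cytosines inside the recognition sites of the enzymes, which were left out of the main comparisons, differed between the libraries at a few places in these genes. Of 276 such cytosines in the 7 genes, 5 (1.81%) had an adjusted p under 0.05 by Fisher's exact test over all cytosines with sites kept, against 0.470% of 1563169 such cytosines over the genome. In Mef2d, 3 MspI-site cytosines within 1 kb of the start were at 94.5% in siCon (69 of 73 reads) and 48.4% in siH19 (30 of 62) at chr3:88142903, at 8.70% (4 of 46) and 53.7% (29 of 54) at chr3:88142957, and at 40.6% (26 of 64) and 4.55% (3 of 66) at chr3:88143226. In Mef2c, 2 TaqI-site cytosines were at 52.4% (11 of 21) and 5.13% (2 of 39) at chr13:83564661 and at 65.5% (19 of 29) and 100% (37 of 37) at chr13:83620813. At each of the 5, the cytosine on the other strand of the same CpG differed in the opposite direction, for example from 14.0% to 40.0% beside the first. The cytosines outside sites within 1 kb of the same Mef2d start were at most 14.3% in siCon and 9.68% in siH19. Whether filled-in ends contributed at these sites was not tested.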

How the results depend on the processing

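The number of strongly changed member cytosines was 4, and became 13 with enzyme sites kept, 1 with strands summed and 1 at a minimum of 50 points. The share of all cytosines strongly changed is given for the main setting alone, so these 3 counts cannot be set against a background. The number of member cytosines with an adjusted p under 0.05 became 5 with sites kept and stayed at 0 under the other alternatives run. The number of regions called was 0, and became 1 (the Mef2a body) with Fisher's exact test of reads added up over cytosines and 1 (Mef2c) with windows at every transcript start. The share of all regions that pass with Fisher's exact test of added reads is not given, so results of that test cannot be set against a background. Of 109 region differences recomputed, 96 had a test, of which 88 kept their direction and their side of the threshold, 5 reversed and 3 passed it. Of the other 13, unweighted means without a test, 12 kept their direction and 1 reversed. With read-weighted levels the Myod1 promoter (5.36 points), the Mef2a body (-12.6) and the Mef2d upstream window (6.52) passed, and the Mef2d body reversed (4.52). With sites kept, the Myog promoter (-0.674) and the Mef2a body (0.651) reversed, as did the Mef2a upstream window as an unweighted mean (-0.264), the Mef2d window of 10 kb (-0.167) and the Mef2c body without its internal start windows (-1.09). None of these 6 was called, and the cause was not tested. The alternatives for the Mef2c transcript-start windows were chosen after seeing the data. The difference stayed past the threshold in 5 of 9. It missed the threshold at 11.8 points with the F test that allows for spread between cytosines, although that spread was at its lower limit of 1. It also missed it at 9.71 with reads halved at 4 CpGs and at 6.98 with read-weighted levels over all 21 cytosines. The unweighted mean difference, 9.34, has no test. No paired analysis was possible because each group is 1 library. Depth limits single cytosines, some of which had only 5 reads in a library. Where reads span several CpGs, p-values are too small and the intervals and limits of regions too narrow.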
